A study of Drosophila melanogaster with 20 samples.

Results

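The genes described here are 10 neuropeptide precursors of the fly brain, Pdf, NPF, sNPF, Dh31, Dh44, Lk, AstA, Tk, Dsk and Crz. They were picked by symbol from a count table of 17609 genes, and all 10 passed the filter on low counts in both sexes. RNA was sequenced from heads of 1-week-old unmated Drosophila melanogaster that differed in sex and in the X-linked gene white (w), which encodes a transporter of eye pigment precursors. The 20 samples, each a pool of 10 heads, formed 4 groups of 5, red-eyed (w+) and white-eyed (w-) flies of each sex. All flies shared the w1118 background, whose w is partly deleted. The w+ flies carried a functional w from the Harwich line, brought in over 10 generations of backcrossing, and were siblings of the w- flies. In w+ males, with a single X, it stood in place of the mutant allele. Because the last cross was to w1118 males, w+ females carried 1 functional copy beside the mutant allele, and w- females carried only the mutant allele. The w+ flies stand for a single donor allele in a single line, together with whatever Harwich sequence stayed linked to w on the X, the extent of which was not measured here. None of the 10 genes lies on the X.

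Neuropeptides are cut from larger precursors, amidated, packed into dense core vesicles and released to act, mostly through G protein-coupled receptors, on circuits and tissues that can be far from the releasing cell. In the adult fly brain each of these precursors is made by a restricted set of neurons. PDF synchronizes the clock network. NPF and sNPF, relatives of vertebrate NPY-type peptides in sequence or function, act in feeding and arousal. DH31, DH44 and leucokinin (Lk) were named as diuretic hormones or myotropins and also act in sleep, activity rhythms and feeding. Allatostatin A (AstA) and the tachykinins (Tk) modulate feeding, sleep and sensory gain, drosulfakinin (Dsk) is the insect relative of cholecystokinin and acts as a satiety signal, and corazonin (Crz) is a relative of gonadotropin-releasing hormone that acts in metabolism and stress.

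The samples carried their labels. Between 34.2 M and 48.9 M reads were assigned to genes per sample. In w+ samples the w gene had 374 to 509 reads (males) or 481 to 688 (females), against 4 to 15 in any w- sample. The male-specific roX genes and the female-specific yolk protein genes followed the labelled sex in all 20 samples. The heads held several tissues, with all 10 neuron markers, all 7 photoreceptor markers and all 6 glial markers detected in every sample. The Hox genes of the ventral nerve cord summed to no more than 2.93 CPM in any sample. CPM here are read counts relative to library size, after 1 scaling of all 20 samples by the trimmed mean of M-values (TMM). The 6 digestive enzyme genes of the gut, an organ that also makes Tk, NPF, DH31 and AstA, summed to between 5.46 and 10.2 CPM in 19 samples and to 59.3 CPM in w- female replicate 3.

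**Figure D1:**
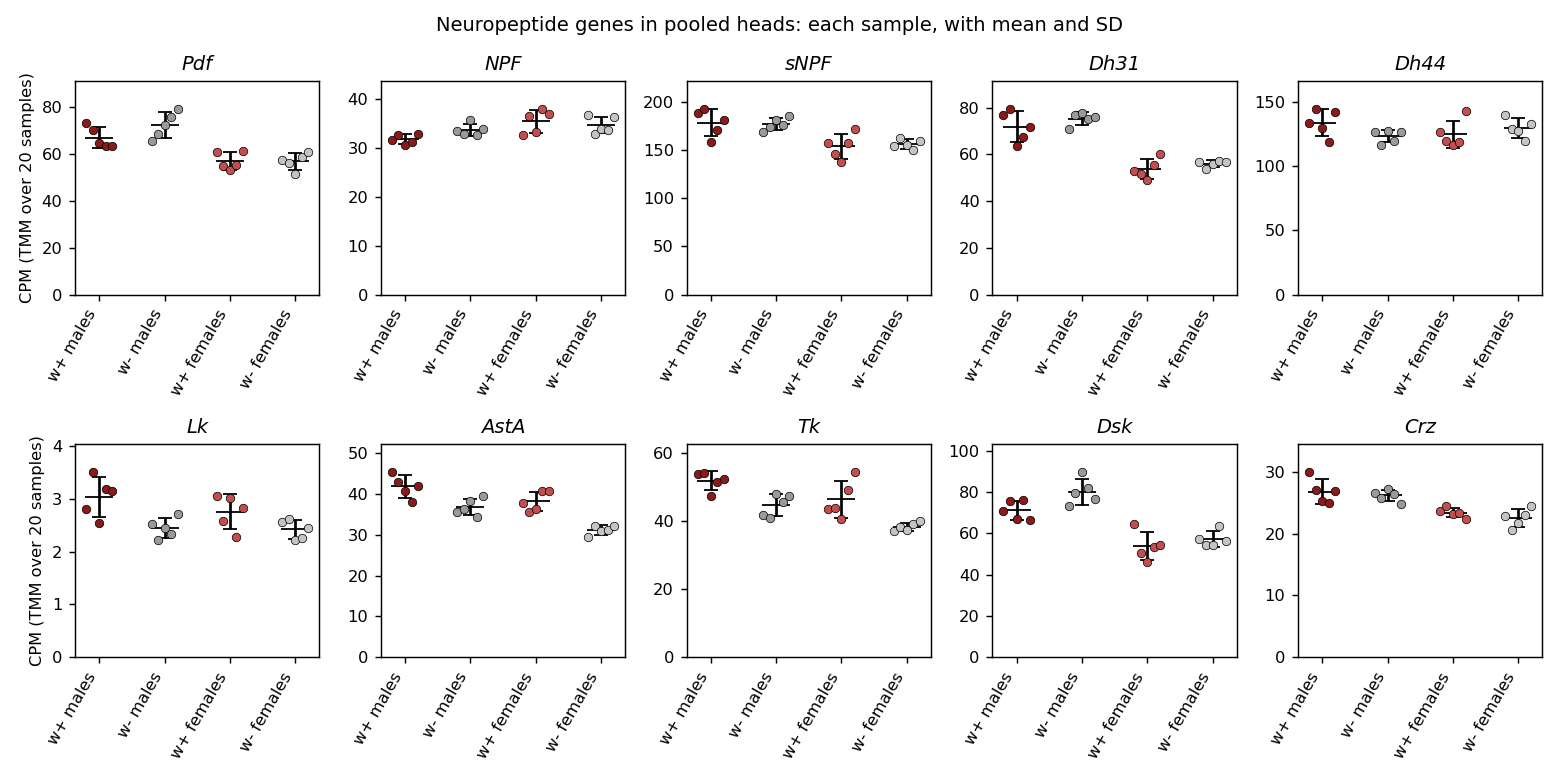
Level of each neuropeptide gene in each sample (y axis, TMM-scaled CPM from 0; x axis, the 4 groups). Points are samples in order of replicate number, and bars are the mean and SD of 5. AstA and Tk sit lower in w- than in w+ flies of the same sex, while Dh31 and Dsk sit lower in females than in males of the same eye color.

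The 10 genes spanned a wide range of levels, and their order was nearly the same in every group. Levels were compared between genes as CPM per kb of exon. Dsk was highest, at 125 ± 8.24 CPM per kb (SD, n = 5) in w+ males and 94.5 ± 12.2 in w+ females, followed by Pdf at 98.5 ± 6.48 and 83.9 ± 5.58, and by sNPF at 72.9 ± 5.69 and 63.0 ± 5.27. Dsk, Pdf and sNPF did not overlap with one another in the samples of any group, except Dsk and Pdf in w+ females. NPF, Dh44 and Dh31 formed a middle set whose order changed between groups. In w+ males these genes could not be told apart, with Dh44 at 55.6 ± 4.32, Dh31 at 55.5 ± 5.03 and NPF at 53.1 ± 1.65 CPM per kb. In females of both eye colors NPF was ahead of Dh44, with overlapping samples, and Dh31 came last of the set without overlap. Crz (41.0 ± 3.10 CPM per kb in w+ males), Tk (32.0 ± 1.68) and AstA (28.7 ± 1.89) followed in every group, and Tk and AstA overlapped in all groups but w- females. Lk was lowest at 4.85 ± 0.602 CPM per kb, resting on 70 to 156 reads per sample, where sNPF had 4824 to 9959.

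Between w- and w+ flies, AstA was the only gene of the 10 that was called in both sexes in the fit with the replicate number as a block (without the block, Tk was too). It is the allatostatin A precursor (FBgn0015591, BDGP6.54 chromosome arm 3R, 24760530 to 24765071, minus strand). In w+ males AstA stood at 45.5, 43.0, 40.7, 38.1 and 42.1 CPM in replicates 1 to 5, and in w- males at 35.6, 36.3, 38.3, 34.5 and 39.5 CPM. The w- samples lay lower, with the 2 highest of them above the lowest w+ sample. In males AstA fell by 0.19 on the log2 scale (SE 0.05, edgeR adjusted p = 0.043), or 12.4%, and it was lower in w- in 5 of 5 pairs of the same replicate number. In w+ females its values were 37.8, 35.6, 36.2, 40.7 and 40.7 CPM, and in w- females 29.4, 32.2, 30.8, 31.2 and 32.2 CPM. All w- females were below all w+ females. In females AstA fell by 0.29 on the log2 scale (SE 0.04, edgeR adjusted p = 0.022), or 18.2%. It was again lower in 5 of 5 pairs, which any pairing of groups without overlap gives.

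Tk, the precursor of the tachykinins (FBgn0037976, arm 3R, 11994175 to 12005473, minus strand), had differences of like size. It stood at 53.8, 54.2, 47.4, 51.7 and 52.6 CPM in w+ males and at 41.9, 41.0, 48.0, 45.7 and 47.4 CPM in w- males. Here 1 w- male sample and 1 w+ male sample crossed. The male difference was -0.22 on the log2 scale (SE 0.06, edgeR adjusted p = 0.057), just outside the threshold, with the w- sample lower in 4 of 5 pairs. Without the replicate block, Tk passed in males (-0.22, adjusted p = 0.017). Samples of the same number did not all deviate together within a sex, so the pairs counted here share a number and no known source. In w+ females Tk had 43.6, 44.0, 40.7, 49.1 and 54.6 CPM, and in w- females 37.2, 38.3, 37.5, 39.1 and 40.0 CPM. The female groups did not overlap. In females Tk fell by 0.26 (SE 0.05, edgeR adjusted p = 0.035), or 16.7%. It was lower in 5 of 5 pairs, which the lack of overlap already gives.

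Counted over the set, 1 of the 10 genes was called in males (AstA) and 2 in females (AstA and Tk), all lower in w- flies. Of all genes, 12.7% were called in males (8.06% lower) and 9.23% in females (4.51% lower). In males the count among the 10 genes was near these shares, and in females it rests on 2 genes. The groups did not overlap for 0 of the 10 genes in males and 2 in females, where 13% and 6.73% of all genes did not overlap. In bulk heads, fewer cells of a type and less RNA per cell cannot be told apart. The 10 neuron markers had medians of 0.07 in males and 0.10 in females on the log2 scale, slightly higher in w-. Muscle markers were higher in w- females (2 of 4 called, median 0.33), with sums of 3290 to 3743 CPM against 2482 to 3158 CPM in w+ females, and at a median of 0.02 in males, and their part in the result was not tested. A scale set by the 10 neuron markers was added after their difference between the sexes was seen. It moved the median of all genes by -0.048 in males and -0.070 in females. The share of all genes called by eye color on it is not given here. On this scale AstA was at -0.24 in males (edgeR adjusted p = 0.054) and -0.36 in females (adjusted p = 0.0099). On the same scale Tk was at -0.27 in males (adjusted p = 0.033) and -0.33 in females (adjusted p = 0.019). The digestive enzymes of the gut were low in 19 samples, as given above. Without w- female replicate 3 and its partner the female differences were -0.31 for AstA (adjusted p = 0.044) and -0.30 for Tk (adjusted p = 0.044).

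Within a sex these calls were close to the threshold. Over 13 alternatives, AstA was called in 5 in males and 10 in females, and Tk in 7 and 9. The male AstA call was lost when any of the 5 replicate numbers was left out (edgeR adjusted p from 0.057 to 0.099), while Tk was called in males without replicate 3 (adjusted p = 0.039). The female AstA and Tk calls were lost without replicate 1 or 4, the Tk call also without replicate 2, and both with library size as the only scaling (adjusted p = 0.12 and 0.20). An average of the eye color difference over both sexes, added after the calls within each sex were seen, used all 20 samples. It gave -0.24 for AstA (SE 0.03, edgeR adjusted p = 6.4e-04) and -0.24 for Tk (SE 0.04, adjusted p = 0.0022), where 30% of all genes were called (16% lower). AstA and Tk were each called in all 17 alternatives of this average. AstA was lower in w- flies in 10 of 10 pairs and Tk in 9 of 10. The 5 female pairs of each gene are fixed by the lack of overlap. Of the 10 genes, 3 were called in the average (AstA, Tk and Lk, all lower), no larger a share than the 30% of all genes.

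**Figure D2:**
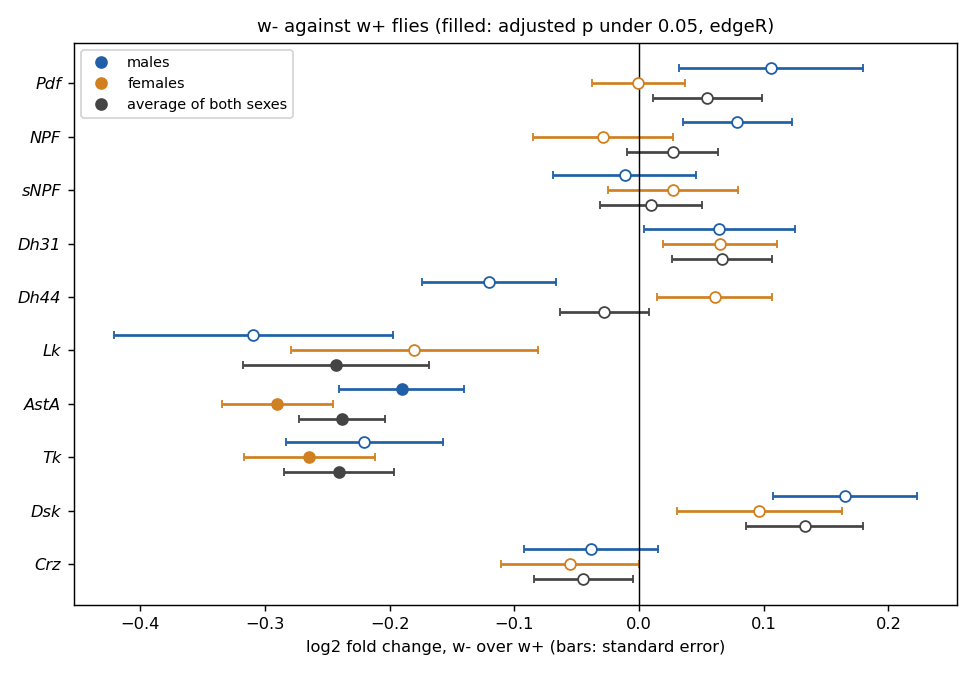
Difference between w- and w+ flies for each gene (x axis, log2 fold change, with standard errors as bars) in males, in females and averaged over both sexes. Filled points passed an adjusted p of 0.05: AstA in all 3 contrasts, Tk in females and in the average, and Lk only in the average.

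Lk, the leucokinin precursor (FBgn0028418, arm 3L, 14560139 to 14560764, minus strand), had a difference of the same size with a larger error. It stood at 2.80, 3.51, 2.54, 3.19 and 3.15 CPM in w+ males and at 2.53, 2.23, 2.45, 2.33 and 2.72 CPM in w- males. In females it had 3.06, 2.59, 3.02, 2.28 and 2.83 CPM (w+) and 2.56, 2.62, 2.22, 2.26 and 2.45 CPM (w-). The w- samples sat at the lower end of the w+ range and overlapped it. The difference was -0.31 in males (SE 0.11, edgeR adjusted p = 0.12) and -0.18 in females (SE 0.10, adjusted p = 0.26), and w- was lower in 9 of 10 pairs. In the average over both sexes Lk fell by 0.24 (SE 0.07, adjusted p = 0.029). That call was lost with library size as the only scaling (-0.15, adjusted p = 0.19), with DESeq2 (adjusted p = 0.072) and when 1 of 4 pairs was left out, male replicate 2 (adjusted p = 0.054) or 4 (0.063) or female replicate 1 (0.061) or 3 (0.064). Exons of genes on the other strand cover 582 bp of Lk, and counting was by strand.

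For Dsk the signs were positive. The drosulfakinin precursor (FBgn0000500, arm 3R, 4189692 to 4190260, minus strand) stood at 70.9, 75.9, 66.9, 76.0 and 66.3 CPM in w+ males and at 73.2, 79.4, 89.9, 81.9 and 76.7 CPM in w- males. In w+ females it had 64.7, 50.4, 46.0, 53.2 and 54.6 CPM, and in w- females 57.4, 54.4, 54.3, 63.7 and 56.2 CPM. The w- sample was the higher one in 9 of 10 pairs, and the groups overlapped in both sexes. The difference was 0.17 in males (SE 0.06, edgeR adjusted p = 0.11), 0.10 in females (SE 0.07, adjusted p = 0.35) and 0.13 in the average (SE 0.05, adjusted p = 0.051). It did not pass the threshold in any of the 3 contrasts. The average was called in 5 of its 17 alternatives, among them DESeq2 (adjusted p = 0.0499) and library size alone (0.23, adjusted p = 0.0048), and the male difference in 1 of 13, library size alone (0.22, adjusted p = 0.042).

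For the other 6 genes no difference between w- and w+ flies passed the threshold in either sex. Pdf, the clock peptide precursor (FBgn0023178, arm 3R, 26455462 to 26456141, minus strand), stood at 73.1, 70.1, 64.8, 63.5 and 63.3 CPM in w+ males and at 65.4, 68.7, 72.6, 76.0 and 79.3 CPM in w- males. It had 61.0, 54.7, 53.1, 55.2 and 61.2 CPM in w+ females and 57.3, 56.2, 51.4, 58.9 and 61.0 CPM in w- females. The groups overlapped in both sexes, in males with 3 of 5 w+ samples below the lowest w- sample, with differences of 0.11 in males (SE 0.07, edgeR adjusted p = 0.42) and 0.00 in females (-0.00064, SE 0.04, adjusted p = 0.99). The samples were collected from flies kept on a light-dark schedule, and the hour of collection is not given in the sources used here.

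NPF (FBgn0027109, arm 3R, 16609220 to 16611325, plus strand) was the steadiest of the 10 genes, with 30.7 to 38.0 CPM over all 20 samples. It was higher in w- males in 5 of 5 pairs, by 0.08 (SE 0.04, edgeR adjusted p = 0.30), and in w- females the difference was -0.03 (SE 0.06, adjusted p = 0.76). sNPF (FBgn0032840, arm 2L, 20027915 to 20056373, plus strand), made by many more neurons than the other peptides, had 159 to 193 CPM in w+ males and 169 to 186 in w- males, a difference of -0.01 (SE 0.06, adjusted p = 0.93). In females it had 138 to 172 (w+) and 150.2 to 162 CPM (w-), a difference of 0.03 (SE 0.05, adjusted p = 0.76). For sNPF the w- range lay within the w+ range in both sexes, as did that of NPF in females. In males the NPF ranges, 30.7 to 32.9 CPM (w+) and 32.7 to 35.8 CPM (w-), overlapped only at their ends.

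For the diuretic hormone genes Dh31 and Dh44 no difference between w- and w+ flies passed the threshold in either sex. Dh31 (FBgn0032048, arm 2L, 8491868 to 8506845, minus strand) differed by 0.06 in males (SE 0.06, edgeR adjusted p = 0.56) and 0.06 in females (SE 0.05, adjusted p = 0.37). Dh44 (FBgn0012344, arm 3R, 9638182 to 9650706, plus strand), the fly relative of corticotropin-releasing factor, had 118 to 144 CPM in w+ males and 116 to 127 in w- males. It had 116 to 142 CPM in w+ females and 119 to 139.7 in w- females. Its differences had opposite signs, -0.12 in males (SE 0.05, adjusted p = 0.20) and 0.06 in females (SE 0.05, adjusted p = 0.40). Crz (FBgn0013767, arm 3R, 14314854 to 14315716, plus strand) differed by -0.04 (SE 0.05, adjusted p = 0.71) and -0.06 (SE 0.06, adjusted p = 0.52).

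Whether eye color acted differently in males and females was tested as an interaction in 1 fit of all samples. None of the 10 genes passed (0 of 10, edgeR), and 0 with DESeq2. The interaction called 3 of 11423 genes (0.0263%). At an unadjusted p under 0.05 there was 1 of the 10 genes, Dh44 (0.17, SE 0.07, adjusted p = 0.80), against 6.03% of all genes. For AstA the female minus male difference in effect was -0.11 (SE 0.07, adjusted p = 0.89) and for Tk -0.05 (SE 0.09, adjusted p = 0.98), so a different effect in the sexes was not detectable at this depth and replication.

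The levels of AstA and Tk were also alike over the samples. Over the 20 samples and the 9906 other genes with at least 10 reads in every sample, the gene whose log2 CPM was most like that of AstA was Tk (Pearson r 0.91), and the gene most like Tk was AstA. Next came kek4 for AstA (0.90) and AANATL7 for Tk (0.90). The ratio of AstA to Tk in CPM was 0.807 ± 0.0486 in w+ and 0.824 ± 0.0502 in w- males, and 0.828 ± 0.0563 (w+) and 0.812 ± 0.0198 (w-) for females (SD, n = 5), so it hardly differed between groups in which both genes did. These points share libraries and hold the differences between groups. After the group means were taken out, r was 0.66 over the 20 samples. Without the group means AstA was closer to sNPF (0.71), and Tk was closer to sNPF (0.82) and Dh31 (0.78), than AstA and Tk were to each other.

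**Figure D3:**
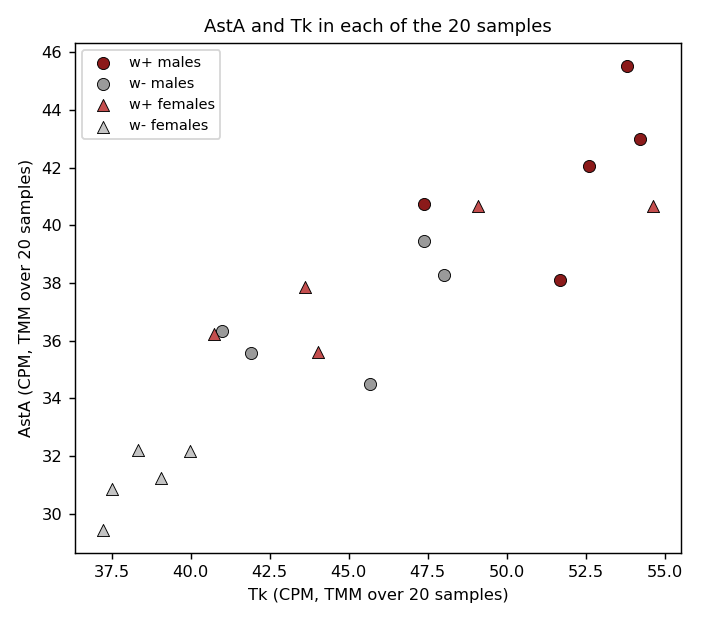
AstA (y axis) against Tk (x axis) in each of the 20 samples, both in TMM-scaled CPM on axes that do not start at 0. Circles are males, triangles females, red w+ and gray w- flies. The 5 w- females form the lower left end, at 29.4 to 32.2 CPM of AstA and 37.2 to 40.0 CPM of Tk, and w+ males the upper right.

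The other genes had different companions by the same r over the 20 samples, which again holds the differences between groups. Dh31 was most like ChAT, the acetylcholine synthesis enzyme, and Syx6 (r 0.96 for both). Pdf was most like Klp68D (0.93) and pigeon (0.92), sNPF like CG14989 (0.92) and Golgin97 (0.91), Dsk like Wee1 (0.93) and Cdk5alpha (0.92), and Crz like CG12239 (0.90) and Trmt112 (0.88). NPF was most like the gene a (0.80) and Samuel (0.79), and its closest of the 10 genes was Dh44 with r of only 0.08. After the group means were taken out, its r with the other genes of the set ran from -0.13 (Lk) to 0.59 (Tk), with 0.46 for Dh44. Dh44 (sdt and stl, 0.68 each) and Lk (Pi4KIIIalpha 0.75, CG32801 0.74) had no close companion. Within groups the 45 pairs of the 10 genes had a median r of 0.39, from -0.13 to 0.86 (sNPF with Dh31), and 16 pairs were above 0.5. All 10 genes were above their group mean in w+ male replicate 2 and in w- male replicate 3, and below it in w+ male replicate 3.

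More of these genes were called between the sexes than between eye colors. In w+ flies 6 of 10 differed between females and males, with Pdf, sNPF, Dh31, Dsk and Crz lower in females and NPF higher. In w- flies 7 of 10 were lower in females (Pdf, sNPF, Dh31, AstA, Tk, Dsk and Crz) and 0 higher. Of all genes, 35.5% were called in w+ flies (15.8% lower, 19.7% higher in females) and 35.4% in w- flies (16.7% lower, 18.6% higher). The median over the 10 genes was -0.18 in w+ and -0.22 in w- flies on the log2 scale, beside 0.00 and -0.01 over all genes. The groups did not overlap for 4 of the 10 genes in w+ flies and for 7 in w- flies, against 18.5% and 27.6% of all genes.

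Dh31 and Dsk differed most between the sexes. Dh31 stood at 76.7, 79.4, 63.4, 67.6 and 71.9 CPM in w+ males and at 52.7, 51.4, 49.0, 55.4 and 60.1 CPM in w+ females. In w- males it had 70.6, 76.7, 77.8, 75.0 and 75.9 CPM, and in w- females 56.8, 53.6, 56.0, 57.1 and 56.6 CPM. Every female sample was below every male sample. Dh31 fell by 0.42 on the log2 scale in w+ flies (SE 0.06, edgeR adjusted p = 1.9e-05), or 25.2%, and by 0.42 in w- flies (SE 0.06, adjusted p = 1.4e-05). Dsk, whose values are given above, was lower in females by 24.5% in w+ flies (-0.41, SE 0.08, adjusted p = 4.0e-04) and by 28.7% in w- flies (-0.49, SE 0.08, adjusted p = 6.3e-05), also without overlap within an eye color.

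Pdf fell in females by 0.23 in w+ flies (SE 0.06, edgeR adjusted p = 0.0055) and by 0.35 in w- flies (SE 0.06, adjusted p = 1.9e-04). Crz had 24.9 to 30.0 CPM (males) and 22.4 to 24.4 (females) among w+ flies, and 24.9 to 27.3 and 20.6 to 24.4 CPM among w- flies. It fell by 0.20 (SE 0.05, adjusted p = 0.0051) and by 0.22 (SE 0.05, adjusted p = 0.0025), with no overlap in either. sNPF fell by 0.21 (SE 0.06, adjusted p = 0.0065) and 0.18 (-0.18, SE 0.06, adjusted p = 0.017). AstA and Tk differed by -0.13 (SE 0.05, adjusted p = 0.051) and -0.16 (SE 0.07, adjusted p = 0.061) in w+ flies, and fell by 0.24 (SE 0.05, adjusted p = 0.0013) and 0.22 (-0.22, SE 0.07, adjusted p = 0.013) in w- flies. The tests of the interaction given above are also those of whether these sex differences depended on eye color, and for AstA and Tk they did not pass.

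NPF was the exception. It had 31.6, 32.7, 30.7, 31.2 and 32.9 CPM in w+ males and 32.7, 36.6, 33.3, 38.0 and 36.9 CPM in w+ females. The lowest female sample lay within the male range. NPF was higher in w+ females by 0.16 (SE 0.05, edgeR adjusted p = 0.012), or 11.5%, and in w- flies the difference was 0.04 (SE 0.05, adjusted p = 0.50). Its direction depended on the scaling: with library size alone it was -0.11 in w+ and -0.13 in w- flies. Dh44 (-0.10, adjusted p = 0.19, in w+ flies and 0.07, adjusted p = 0.35, in w- flies) and Lk (-0.14, adjusted p = 0.28, and -0.02, adjusted p = 0.91) did not pass in either.

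Neuron markers were themselves lower in female heads. Of 10 such genes, 9 were called lower in w+ females and 7 in w- females, with medians of -0.21 and -0.20. Their summed level was 5667 to 6466 CPM for males against 4758 to 5688 for females among w+ flies, and 5973 to 6265 against 4975 to 5663 among w- flies. Among other tissues, 4 of 5 fat body genes, 3 of 3 hemocyte genes and 4 of 4 muscle genes were called higher in both eye colors. The fat body list holds Yp1, a female-specific yolk protein gene that also served above as a marker of sex. Photoreceptor genes went the other way, with 1 of 7 called lower in w+ females and 4 of 7 in w- females. Of 6 glial genes 1 was higher and 1 lower in each, and 1 of 3 gut genes was lower in each. The gut list holds, beside the digestive enzymes, the gene pros, which is not an enzyme and had 993 to 1394.5 CPM. The part of these tissues in the sex differences of the neuropeptide genes was not tested.

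When the libraries were instead scaled to the 10 neuron markers, an alternative added after that difference was seen, most of the sex differences shrank. On that scale the median over all genes was 0.21 in w+ and 0.18 in w- flies, and 53.4% of all genes were called in w+ flies (3.65% lower and 49.8% higher in females) and 44.6% in w- flies (2.43% lower, 42.1% higher). Of the 10 genes, 2 were called in w+ flies and 4 in w- flies. Dh31 was still lower in females, by 0.20 in w+ flies (-0.20, SE 0.06, edgeR adjusted p = 0.0060) and by 0.22 in w- flies (-0.22, SE 0.06, adjusted p = 0.0037). Dsk was lower in w- flies (-0.29, SE 0.09, adjusted p = 0.016) and not called in w+ flies (-0.19, SE 0.09, adjusted p = 0.088). NPF was higher in females of both eye colors, by 0.37 (SE 0.06, adjusted p = 1.3e-04) and 0.24 (SE 0.06, adjusted p = 0.0050), and Dh44 in w- flies, by 0.27 (SE 0.05, adjusted p = 4.1e-04). The calls of Pdf, sNPF, Crz, AstA and Tk were lost, with values from -0.15 (Pdf, w- flies) to 0.08 (AstA, w+ flies). This scaling moves every gene alike: on it Pdf, sNPF, Dh31, AstA, Tk, Dsk and Crz all still lay below the median of all genes in both eye colors, and NPF above it. With library size as the only scaling the count in w+ flies went the other way, from 6 to 9 genes, all lower in females, with AstA (-0.40, adjusted p = 4.3e-05), Tk (-0.42, adjusted p = 1.5e-04), Dh44 (-0.36, adjusted p = 7.8e-04) and Lk (-0.39, adjusted p = 0.0077) added and NPF no longer called (adjusted p = 0.091).

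**Figure D4:**
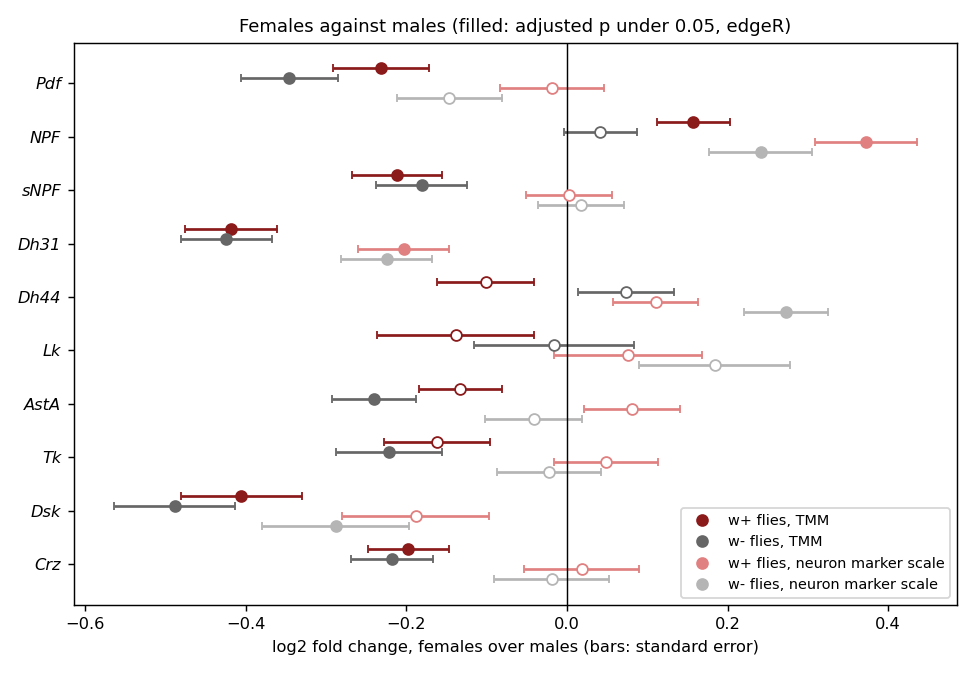
Difference between females and males for each gene (x axis, log2 fold change, with standard errors as bars), in w+ and in w- flies, after TMM scaling (dark) and after scaling to 10 neuron markers (light). Filled points passed an adjusted p of 0.05. The light points lie to the right of the dark ones by about the 0.2 by which neuron markers were lower in females. Pdf, Dh31 and Dsk stay below 0 in both eye colors, Pdf at -0.018 in w+ flies.

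Of the 14 receptors of these peptides, 1 was called by eye color in each sex, and it was the same gene. The shares over all genes were 12.7% in males and 9.23% in females. Pdfr, the receptor of PDF, had 112 ± 14.6 CPM in w+ females and 78.0 ± 5.33 in w- females, and 91.9 ± 5.30 in w+ males and 76.2 ± 2.12 in w- males (SD, n = 5). It fell in w- flies by 0.52 in females (SE 0.08, edgeR adjusted p = 0.022) and by 0.27 in males (SE 0.04, adjusted p = 0.0041). For Pdf, its ligand, the difference did not pass in either sex, as given above. Pdfr lies on the X from 2552206 to 2578640, 212 kb from w (2790599 to 2796466), in the region where the w+ chromosome is of Harwich origin at w, so the effect of w and that of linked sequence cannot be told apart. In the average over both sexes, where 30% of all genes were called, 4 of 14 receptors were. Beside Pdfr (-0.39, adjusted p = 1.5e-04) these were AstA-R1, an allatostatin A receptor that also lies on the X, 778 kb from w (0.21, SE 0.05, adjusted p = 0.0079), sNPF-R (0.18, SE 0.04, adjusted p = 0.010) and CrzR (0.16, SE 0.06, adjusted p = 0.048), all 3 higher in w- flies and named after their values were seen. Between the sexes 7 of 14 receptors were called in w+ flies and 5 in w- flies, beside 35.5% and 35.4% of all genes. CrzR was higher in females (0.35 and 0.40, adjusted p = 0.0071 and 0.0031), NPFR lower (-0.32 and -0.38, adjusted p = 0.0014 and 2.6e-04) and Dh44-R1 lower (-0.31 and -0.28, adjusted p = 6.4e-04 and 0.0012). Lkr was higher (0.29 and 0.28, adjusted p = 0.0068 and 0.0070), and Pdfr was higher in w+ females (0.29, adjusted p = 0.0031) and at 0.03 in w- flies (adjusted p = 0.73).

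Of 18 genes for peptide processing and dense core vesicles, 2 were called in each sex, again the same ones. The shares over all genes were 12.7% in males and 9.23% in females. Nep1, a neprilysin, a class of enzymes that degrade peptides outside the cell, rose in w- flies by 0.37 in males (SE 0.05, edgeR adjusted p = 0.0048) and 0.42 in females (SE 0.04, adjusted p = 0.0044). Nep1 lies on the X, 3295 kb from w. Pal1, a lyase of the last step of amidation, fell by 0.24 in males (SE 0.05, adjusted p = 0.017) and by 0.42 in females (SE 0.10, adjusted p = 0.049). By sex, 15.8% of all genes were lower and 19.7% higher in w+ females, and 16.7% and 18.6% in w- females. Of the 18 genes, 9 were lower in w+ females and 8 in w- females, with 2 and 0 higher. Among them were the vesicle genes Sytalpha (-0.33 and -0.36, adjusted p = 1.4e-05 and 4.4e-06), Cadps (-0.25 and -0.28, adjusted p = 0.0060 and 0.0031) and IA-2 (-0.27 and -0.21, adjusted p = 0.0018 and 0.010), the prohormone convertase partner 7B2 (-0.22 and -0.27, adjusted p = 0.0018 and 3.1e-04) and Nep1 (-0.31 and -0.27, adjusted p = 7.6e-05 and 2.8e-04). Pal1 was higher in w+ females (0.42, adjusted p = 0.0064).

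Of 32 other neuropeptide precursor genes, 27 passed the filter, and 5 were called by eye color in males and 3 in females. The shares over all genes were 12.7% in males and 9.23% in females. Capa, the precursor of the capability peptides, was lower in w- flies of both sexes, with male means of 72.0 ± 4.82 (w+) and 59.0 ± 4.19 CPM (w-) and a difference of -0.29 (SE 0.06, edgeR adjusted p = 0.014). Its female means were 69.4 ± 3.46 and 59.3 ± 2.03 CPM, a difference of -0.23 (SE 0.03, adjusted p = 0.018). CCHa2, a nutrient-dependent peptide of fat body and gut, was also lower in both (-1.04, SE 0.11, adjusted p = 0.0036; -0.96, SE 0.19, adjusted p = 0.041), and Nplp2 in males (-0.78, SE 0.09, adjusted p = 0.0027; -0.65, SE 0.22, adjusted p = 0.11, in females). Nplp3 (0.68, SE 0.10, adjusted p = 0.0086) and SIFa, the SIFamide precursor (0.26, SE 0.04, adjusted p = 0.0063), rose in w- males and were at 0.41 (adjusted p = 0.069) and 0.30 (adjusted p = 0.070) in females. Proc, the proctolin precursor, rose in w- females (0.33, SE 0.05, adjusted p = 0.024) and was at 0.03 in males (adjusted p = 0.80), and its interaction did not pass (0.30, adjusted p = 0.58). Fat body markers moved with CCHa2 and Nplp2: their medians were -0.63 in males (1 of 5 called lower) and -0.57 in females (0 of 5), with male sums of 6502 to 10421 CPM (w+) and 4190 to 6312 (w-) and female sums of 37926 to 100650 (w+) and 28687 to 56539 (w-). The sums include the yolk protein gene Yp1, which reached 77639 CPM. The part of the fat body markers in the result was not tested.

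**Figure D5:**
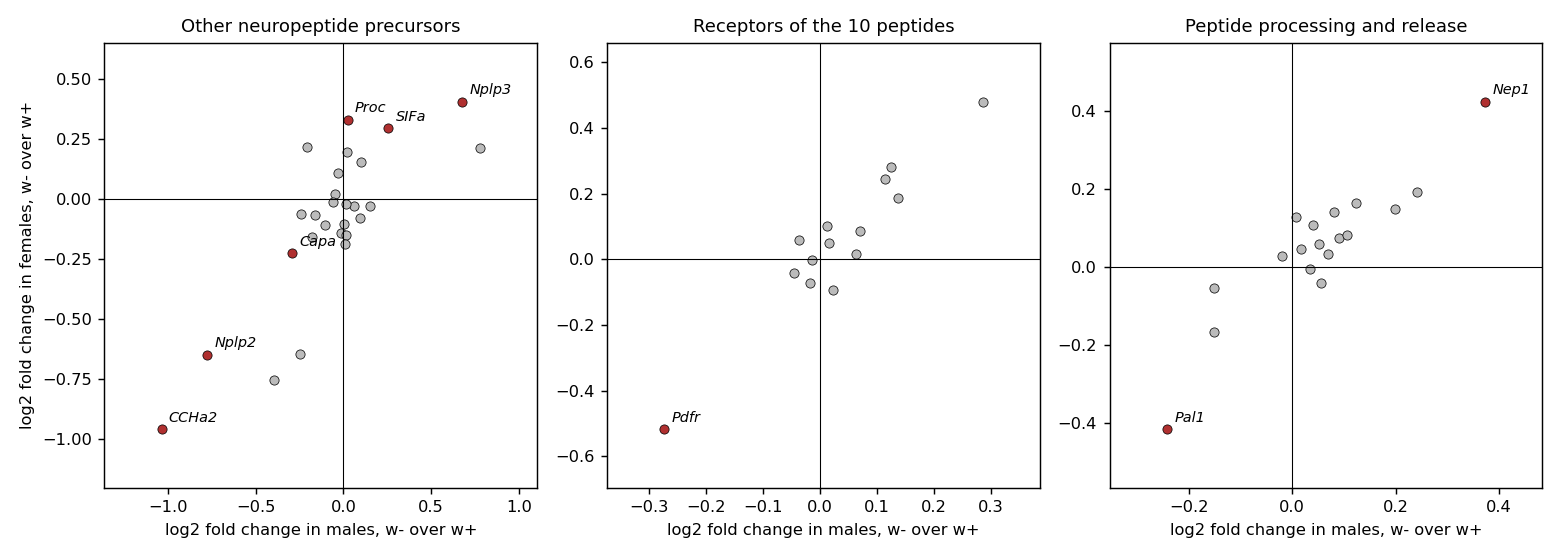
Difference between w- and w+ flies in females (y axis) against that in males (x axis), both as log2 fold changes, for 27 other neuropeptide genes, 14 receptors of the 10 peptides and 18 processing and vesicle genes. Named red points passed an adjusted p of 0.05 in at least 1 sex. Pdfr stands alone at the lower left of the receptors, at -0.27 and -0.52.

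By sex, 9 of 27 other neuropeptide genes were lower and 2 higher in w+ females, and 13 lower and 2 higher in w- females, with medians of -0.19 and -0.25. Of all genes, 15.8% were lower and 19.7% higher in w+ females, and 16.7% and 18.6% in w- females. CCAP, the crustacean cardioactive peptide gene, was lower in females by 0.72 and 0.54 (-0.72 and -0.54, edgeR adjusted p = 2.1e-04 and 0.0024). Mip, the myoinhibitory peptide gene, was lower in w+ and in w- females (-0.38 and -0.32, adjusted p = 2.9e-05 and 1.1e-04). Trissin was lower in both too (-0.25 and -0.46, adjusted p = 4.3e-04 and 8.1e-07). Proc was higher in w- females (0.40, adjusted p = 4.5e-06) and at 0.11 in w+ flies (adjusted p = 0.0999). Nplp2 was higher in females of both eye colors (0.67 and 0.73, adjusted p = 0.035 and 0.023) and Nplp3 in w+ females (0.42, adjusted p = 0.0085), beside the higher fat body markers of females.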

How the data were processed

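Reads were trimmed with Trim Galore 0.6.1, aligned with STAR, and the reverse-strand reads per gene were deposited by the authors as raw counts, whole numbers without normalization, for all 20 samples. Tables of normalized signal from the authors were not used. In R 4.3.3, edgeR 4.0.16 (TMM, robust quasi-likelihood, Benjamini-Hochberg over all genes tested) was run on genes that reached 10 counts in 3 or more of the 20 samples and, for tests within a sex, in 3 or more of its 10. Eye color was fitted within each sex with the replicate number as a block, as the study's code did, the interaction with the 10 pairs as blocks, and the sexes in 1 fit of 4 groups without a block. Calls are at an adjusted p under 0.05, and the SE is the log2 fold change over the square root of F.

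Samples with the same number did not always deviate together. The correlation of their deviations was over 0.1 in 3 of 5 pairs in males, 2 of 5 in females, and between the sexes in 2 of 5 pairs of w+ and 5 of 5 of w- samples. What a number shares is not stated, so p-values measure the spread between pools of heads. In the fits with a block this is the spread left after the block. No 2 samples of the same group agreed within sampling noise (chi-square per degree of freedom 15.0 to 357).

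The 10 genes, the marker lists and the related lists were chosen with earlier results of these data known. Named are all 10 genes, genes of the related lists called by eye color (the 6 of smallest p where more), the 4 largest called sex differences of each list, and the 2 genes most correlated with each of the 10. Positions come from the BDGP6.54 annotation. The steps were tested on simulated data. Alternatives were DESeq2 1.42.0, other scalings and filters, the block added or removed, and each replicate left out.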

Additional observations from a re-analysis of the deposited data

How the results depend on the processing

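With library size as the only scaling, the median of all genes moved by 0.045 on the log2 scale in males, 0.14 in females, -0.27 between the sexes in w+ flies and -0.17 in w- flies. Members called by eye color in males went from 1 to 2 (AstA and Tk) with no replicate block, with all genes of at least 1 count, with at least 10 counts in every sample and with all 20 samples in 1 fit, and ranged from 0 to 1 when each replicate was left out. With library size alone the 1 called in males was Dsk, higher in w-. In females the count went from 2 to 0 with library size alone, ranged from 0 to 2 over left-out replicates and stayed at 2 with no replicate block. The numbers did not pair the samples within a sex by the correlation check. The average over both sexes went from 3 to 6 with library size alone (4 higher, 2 lower) and ranged from 2 to 4 over left-out pairs. The interaction gave 0 throughout. Between the sexes the count went from 6 to 2 in w+ flies and from 7 to 4 in w- flies on the neuron marker scale, to 9 (all lower) and 7 with library size alone, ranged from 6 to 9 and 7 to 7 over left-out libraries, and was 7 and 7 with a replicate block, where Tk was added in w+ flies. A GC correction was not run.

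Signs reversed as follows, and the cause was not tested beyond the shift above. With library size alone, males had sNPF at 0.039 and Crz at 0.012, females had Pdf at 0.14, NPF at 0.11 and Crz at 0.085, and the interaction had Dh31 at 0.090, Tk at 0.045, Dsk at 0.020 and Crz at 0.072. NPF was at -0.11 (w+) and -0.13 (w-) and Dh44 at -0.095 (w-) between the sexes, and the average had Dh44 at 0.066 and Crz at 0.049. On the neuron marker scale, females had sNPF at -0.043, Dh31 at -0.0049 and Dh44 at -0.0090, and the average had Pdf at -0.0062, NPF at -0.034 and sNPF at -0.051. Between the sexes that scale gave sNPF 0.0027, Dh44 0.11, Lk 0.076, AstA 0.081, Tk 0.049 and Crz 0.019 in w+ flies, and sNPF 0.018 and Lk 0.18 in w- flies. Pdf in females was at 0.0034 with DESeq2, 0.0037 with its size factors and 0.00087 with at least 10 counts in every sample, and Dh31 in the interaction at 0.0058 and 0.0055 with DESeq2 and its size factors. Over left-out replicates the ranges that crossed 0 were those of sNPF in males (-0.059 to 0.024), Pdf (-0.035 to 0.021), NPF (-0.080 to 0.0034) and sNPF (-0.010 to 0.061) in females, sNPF (-0.012 to 0.083), Dh31 (-0.054 to 0.049), Tk (-0.098 to 0.0075) and Crz (-0.069 to 0.021) in the interaction, Lk in the w- sexes (-0.048 to 0.024) and sNPF in the average (-0.015 to 0.029). Depth limits Lk most, with 70 reads in its shallowest sample.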
